A study of Homo sapiens with 6 samples.

Results

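Metallothioneins are small cysteine-rich proteins that hold zinc and copper, and they were described here together with the zinc sensor MTF1 and the zinc exporter SLC30A1 in U251 cells, an established human glioma line. The 10 genes were the metallothionein genes MT1A, MT1E, MT1F, MT1G, MT1M, MT1X, MT2A and MT3 with MTF1 and SLC30A1, taken by symbol from a gene count matrix of 60612 rows, and each had 1 row. In this line 2 groups of 3 libraries were compared, 1 labelled as normal control and 1 as knockdown of TEAD3, a transcription factor of the TEAD family, which acts with YAP1 at the end of the Hippo pathway. All cells grew in the same serum-containing medium, and no metal was listed among the treatments. Cells were transfected transiently. The labels name a plasmid vector and an siRNA without saying which the sequenced cells received, and do not say what the controls were given. Whether the replicates came from separate cultures is not stated, so p-values reflect only how far these libraries vary, and that variation may be technical.

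Metallothioneins bind metal through their cysteines and buffer the pool of loosely held zinc in the cell. When free zinc rises, it loads the zinc fingers of MTF1, which moves to DNA and binds metal response elements in the promoters of metallothionein genes and of SLC30A1. SLC30A1 (ZnT1) carries zinc out across the plasma membrane. Cadmium, glucocorticoids and oxidants also induce metallothioneins, and MT3 is the form known from brain, where neurons make it.

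The coding sequences of the 3 metallothionein genes with the highest levels are shown because their similarity bears on how far reads can be told apart. They come from GENCODE release 29 on GRCh38, read from 5′ to 3′, and the capitals mark cysteine codons.
MT2A: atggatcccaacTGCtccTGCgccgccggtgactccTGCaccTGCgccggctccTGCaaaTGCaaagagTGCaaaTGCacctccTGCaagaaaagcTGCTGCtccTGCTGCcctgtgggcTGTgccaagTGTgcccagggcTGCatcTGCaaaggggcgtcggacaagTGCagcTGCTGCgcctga
MT1X: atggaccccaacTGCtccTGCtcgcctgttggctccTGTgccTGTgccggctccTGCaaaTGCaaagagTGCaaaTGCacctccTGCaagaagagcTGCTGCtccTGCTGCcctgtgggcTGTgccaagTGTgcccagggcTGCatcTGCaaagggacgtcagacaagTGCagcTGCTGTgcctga
MT1F: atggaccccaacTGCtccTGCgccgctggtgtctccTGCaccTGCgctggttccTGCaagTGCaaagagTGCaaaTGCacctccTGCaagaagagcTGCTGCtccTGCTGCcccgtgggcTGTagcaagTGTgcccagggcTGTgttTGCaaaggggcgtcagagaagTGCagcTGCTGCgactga
Each has 186 bases and 61 codons before the stop, of which 20 (32.8%) encode cysteine, and the cysteine codons stand at the same positions in all 3. MT1X and MT2A were 92.5% identical over the coding sequence, with 14 differing bases and a longest identical run of 63 bases. MT1F differed from MT2A at 16 bases and from MT1X at 21. Within annotated transcripts the 3 genes could be separated at the length of a read: MT2A and MT1F shared no stretch of 150 bases with a transcript of any other gene. MT1X shared 8.58% of its 150-base windows with 1 gene, AC026461.1 (ENSG00000259827), which overlaps its exons on the same strand and had 0 counts in every library. How reads that fit several places were counted is not given in the sources used here, so the split of reads among metallothionein genes remains uncertain.

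Promoters were at hand for 4 of the 10 genes (MT2A, MT1X, MTF1 and SLC30A1), as the 250 bases before the transcription start in RefSeq on GRCh38.p14. The 3 promoters with a match to the metal response element core are shown, and beside them that of MT1H, a neighbouring metallothionein gene that had 0 counts in all 6 libraries. Capitals mark the core, TGCACNC or TGCGCNC on either strand.
MT2A: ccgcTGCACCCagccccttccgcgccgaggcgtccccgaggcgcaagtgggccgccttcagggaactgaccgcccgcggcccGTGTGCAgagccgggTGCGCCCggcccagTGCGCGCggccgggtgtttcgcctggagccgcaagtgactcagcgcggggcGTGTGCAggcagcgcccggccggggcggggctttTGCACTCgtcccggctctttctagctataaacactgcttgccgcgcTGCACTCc
MT1X: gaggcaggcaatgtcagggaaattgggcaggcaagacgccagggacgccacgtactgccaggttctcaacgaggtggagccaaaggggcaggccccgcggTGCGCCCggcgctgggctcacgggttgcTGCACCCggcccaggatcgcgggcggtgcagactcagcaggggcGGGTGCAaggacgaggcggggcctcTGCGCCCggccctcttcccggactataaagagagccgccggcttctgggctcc
SLC30A1: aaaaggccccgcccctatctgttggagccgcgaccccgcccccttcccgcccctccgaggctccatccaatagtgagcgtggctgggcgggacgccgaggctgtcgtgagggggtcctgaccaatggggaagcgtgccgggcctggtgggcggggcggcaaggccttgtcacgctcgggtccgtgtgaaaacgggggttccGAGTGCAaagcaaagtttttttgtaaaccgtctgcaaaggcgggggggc
MT1H: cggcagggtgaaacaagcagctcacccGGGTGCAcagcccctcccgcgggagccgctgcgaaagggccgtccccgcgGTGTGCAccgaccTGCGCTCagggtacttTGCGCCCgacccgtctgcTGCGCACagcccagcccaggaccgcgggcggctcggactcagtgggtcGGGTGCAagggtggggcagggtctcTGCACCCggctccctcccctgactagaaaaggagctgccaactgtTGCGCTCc
The MT2A promoter (chr16:56608334-56608583, plus strand) held 7 matches and the MT1X promoter (chr16:56682220-56682469, plus strand) held 4. The SLC30A1 promoter (chr1:211579162-211579411, minus strand) held 1, and the MTF1 promoter (chr1:37859593-37859842, minus strand) held 0. Of 35116 RefSeq promoters cut the same way, 24.8% held at least 1 match, 0.37% at least 4 and 0.0313% at least 7. The MT1H promoter (chr16:56669564-56669813, plus strand) held 8, so a high number of matches occurred at a gene with no detected transcript as well. The TEAD core GGAATG, searched on both strands, was in none of the 4 promoters and in 11.9% of all promoters. The antioxidant response core TGACNNNGC had 1 match each in MT2A, MT1X and SLC30A1, apart from the metal response matches, and was in 10.9% of all promoters. A match is a run of letters and does not show binding, and the absence of one concerns these 250 bases alone.

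The libraries held between 58344026 and 64808615 counts. Values of the 3 libraries of a group are listed in the order of replicates 1, 2 and 3 throughout. TEAD3 itself fell, from 14.9, 20.3 and 21.0 CPM (TMM-normalised counts scaled to library size) in the controls to 4.70, 8.35 and 6.08 CPM after knockdown. The difference was -1.55 on the log2 scale (edgeR adjusted p = 0.0114). This call was lost when control replicate 3 (0.0541), knockdown replicate 1 (0.0532) or knockdown replicate 3 (0.0938) was left out and without a filter on low counts (0.0639), with values from -1.80 to -1.37 on leaving out 1 library. Of the glial markers VIM lay between 3433 and 4842 CPM and SOX2 between 114 and 160.2 CPM, while GFAP lay between 0.375 and 1.80 CPM and OLIG2 was at 0. The summed level of the 7 glial markers lay between 5271 and 5832 CPM in controls and between 4340 and 4894 CPM in knockdown libraries, without overlap. This sum follows VIM, with means of 4484 CPM in controls and 3679 CPM after knockdown. VIM, SOX2 and GFAP were at log2 fold changes of -0.29, -0.27 and -1.34 (edgeR adjusted p = 0.2, 0.247 and 0.143). NES and CD44 were at 0.0045 and -0.073. Of the 6 tested markers, 0 were called by edgeR or DESeq2. At an unadjusted edgeR p under 0.05, 3 were lower (VIM, SOX2 and GFAP), against 1317 of all 17723 genes tested. The groups did not overlap for 3 of the 6, against 21.6% of all genes tested. White blood cell markers summed to at most 0.230 CPM, with CD3E at 0, and endothelial markers to at most 0.903 CPM. Of the 2 neuron markers, SYT1 lay between 15.5 and 18.6 CPM, while RBFOX3 was at most 0.123 CPM. The part of the lower VIM level in the results below was not tested, and in bulk RNA fewer cells of a type cannot be told apart from less RNA per cell.

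MT2A, MT1X and MT1F carried nearly all of the family's transcript in these cells, in that order. To compare genes, levels were divided by length. In CPM per kilobase of annotated exon, the control level was 470.3 ± 90.4 for MT2A, 18.5 ± 3.13 for MT1X and 4.94 ± 0.964 for MT1F (SD, n = 3). MT2A was thereby among the most abundant transcripts of the cells, at rank 72 of 17505 genes with a length. On this scale SLC30A1 stood between MT1X and MT1F at 7.55 ± 1.04, and its lowest control library (6.42) lay above the highest for MT1F (5.64). MTF1 followed MT1F at 4.25 ± 0.357, and these neighbours overlapped in control libraries, with ranges of 3.84 to 5.64 for MT1F and 3.90 to 4.61 for MTF1. In knockdown libraries the overlap was instead between MT1F (6.38 to 8.76) and SLC30A1 (7.59 to 9.15), while MTF1 (3.66 to 4.38) lay below both. MT1E was far lower, at 0.165 ± 0.0673 in controls. The order of MT1F, SLC30A1 and MTF1 depends on the length used. MT1F has 1889 bases of annotated exon, while its coding transcript MT1F-201 has 690, and a shorter length would raise its level.

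The other metallothionein genes were silent or nearly so. MT1A, MT1G and MT3 had 0 counts in every library, which at 3 counts allows a level of up to between 0.0457 and 0.0529 CPM, a limit that covers counting error only. For MT3, the form known from brain, this held in the control and in the knockdown cells. MT1M had 4 counts in knockdown replicate 3 (0.0612 CPM) and 0 elsewhere, so no fold change is given. Of 13 further metallothionein loci and pseudogenes, 11 had 0 counts throughout. MT1P1 had 2 counts in 1 library, and MT2P1 lay between 0.199 and 0.793 CPM with no call (log2 fold change -0.57, edgeR adjusted p = 0.696).

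**Figure D1:**
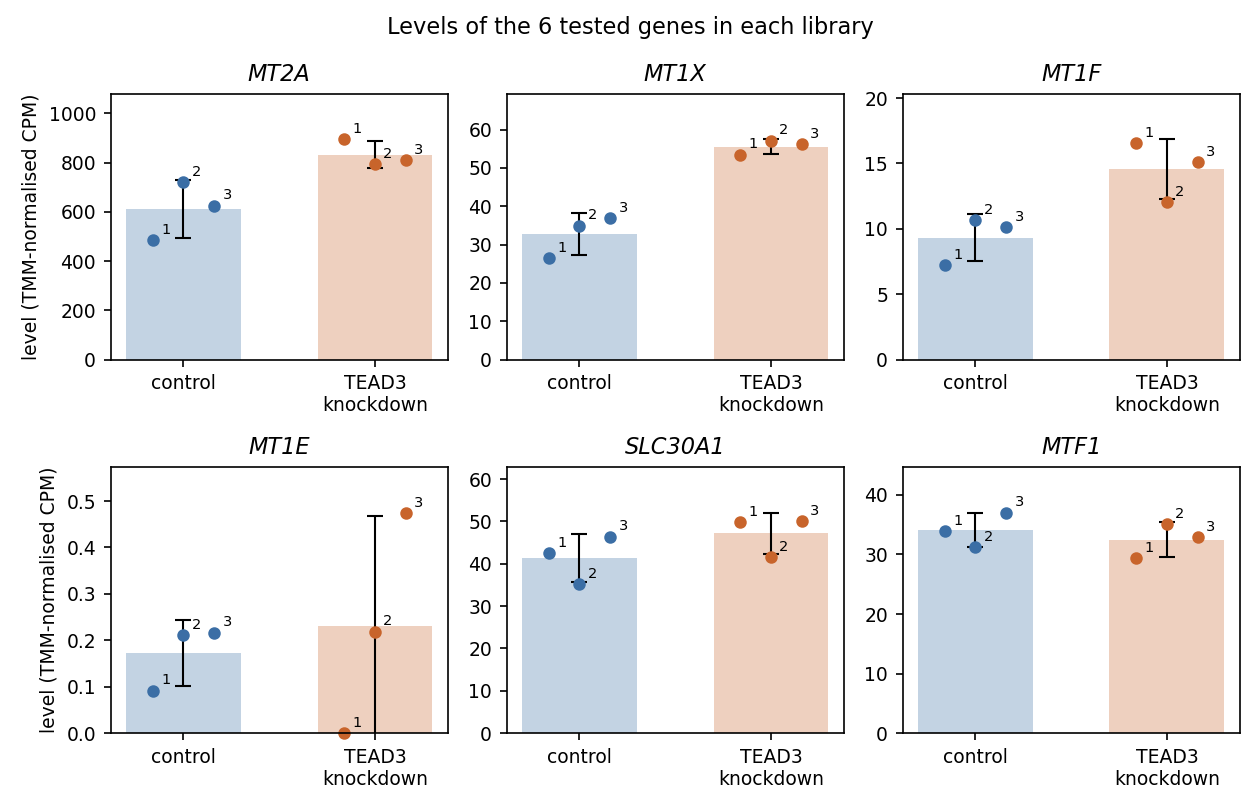
Level of each of the 6 tested genes in TMM-normalised CPM (vertical axes, 1 scale per gene) in the 3 control and 3 TEAD3 knockdown libraries. Points are libraries with their replicate number, bars are group means and error bars are 1 SD (for MT1E cut at 0). For MT2A, MT1X and MT1F every knockdown point lies above every control point, while for MT1E, SLC30A1 and MTF1 the groups overlap.

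After TEAD3 knockdown 1 of the 10 genes passed the test, MT1X, which rose 1.70-fold. MT2A and MT1F were 1.36-fold and 1.56-fold of control without passing it, and MTF1, SLC30A1 and MT1E were not called either. Of the 10 genes, 6 had enough counts to be tested, 1 was called higher and 0 lower at an edgeR adjusted p under 0.05. Over all 17723 genes tested, 0.655% were called, 0.451% higher and 0.203% lower, and a single called gene among these 6 is read as a result on that gene. At an unadjusted edgeR p under 0.05, 3 of the 6 were higher and 0 lower. Of all 17723 genes tested, 8.15% (1444) were higher and 1317 lower at that level. The same 3 genes had all knockdown libraries above all controls, which held for 11% of all genes tested. The median log2 fold change was 0.43 over the 6 genes and -0.0012 over all genes tested.

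MT1X (ENSG00000187193, chr16:56682424-56684196, plus strand), a metallothionein that binds zinc, copper and cadmium, measured 26.5, 35.0 and 36.9 CPM in the controls and 53.4, 57.1 and 56.1 CPM after knockdown. The knockdown libraries lay close together and all above the controls, among which replicate 1 was the lowest. The means were 32.8 ± 5.55 and 55.6 ± 1.91 CPM (SD, n = 3), a log2 fold change of 0.76 with a standard error of 0.131 and a 95% interval of the fold from 1.39 to 2.07 (edgeR adjusted p = 0.0296). Its promoter, shown above, is one of the 130 in 35116 with at least 4 matches to the metal response element core. The direction held in all 15 alternatives, with log2 fold changes from 0.63 to 0.86, but the call did not. It was lost when any one library other than control replicate 2 was left out (edgeR adjusted p = 0.062 without control replicate 1, 0.0648 without control replicate 3, and 0.124, 0.0839 and 0.185 without knockdown replicates 1, 2 and 3), and without a filter on low counts (0.1).

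MT2A (ENSG00000125148, chr16:56608199-56609497, plus strand) is the main metallothionein of most human cells and supplied most of the family's transcript here. It measured 487, 720.4 and 625 CPM in the controls and 895, 794 and 809.8 CPM after knockdown. The groups did not overlap, though the gap between control replicate 2 and knockdown replicate 2 was smaller than the range of the controls. The means were 611 ± 117 and 833 ± 54.4 CPM (SD, n = 3), and the log2 fold change of 0.45 (standard error 0.134) was not called, with a 95% interval of the fold from 1.11 to 1.67 (edgeR adjusted p = 0.156). Leaving out control replicate 2 brought it past the threshold (0.58, edgeR adjusted p = 0.0418), as did DESeq2 (0.45, adjusted p = 0.0154). After correction of each library for transcript length and GC content the value fell to 0.22 (edgeR adjusted p = 0.276).

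MT1F (ENSG00000198417, chr16:56657694-56660698, plus strand), a metallothionein gene between MT2A and MT1X on the chromosome, measured 7.26, 10.6 and 10.1 CPM in the controls and 16.5, 12.1 and 15.1 CPM after knockdown. Knockdown replicate 2 stood nearest to the controls, and the groups did not overlap. The means were 9.34 ± 1.82 and 14.6 ± 2.29 CPM (SD, n = 3), with a log2 fold change of 0.64 (standard error 0.185) that was not called and a 95% interval of the fold from 1.18 to 2.07 (edgeR adjusted p = 0.143). DESeq2 called it, with an adjusted p of 0.0215.

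MT1E (ENSG00000169715, chr16:56625475-56627112, plus strand) was near the limit of detection, with 6, 12 and 13 counts in the controls and 0, 14 and 31 after knockdown. The knockdown libraries held both the lowest and the highest value. The log2 fold change of 0.42 had a standard error of 1.09 and a 95% interval of the fold from 0.254 to 7.06 (edgeR adjusted p = 0.909), so no difference in either direction was detectable at this depth.

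**Figure D2:**
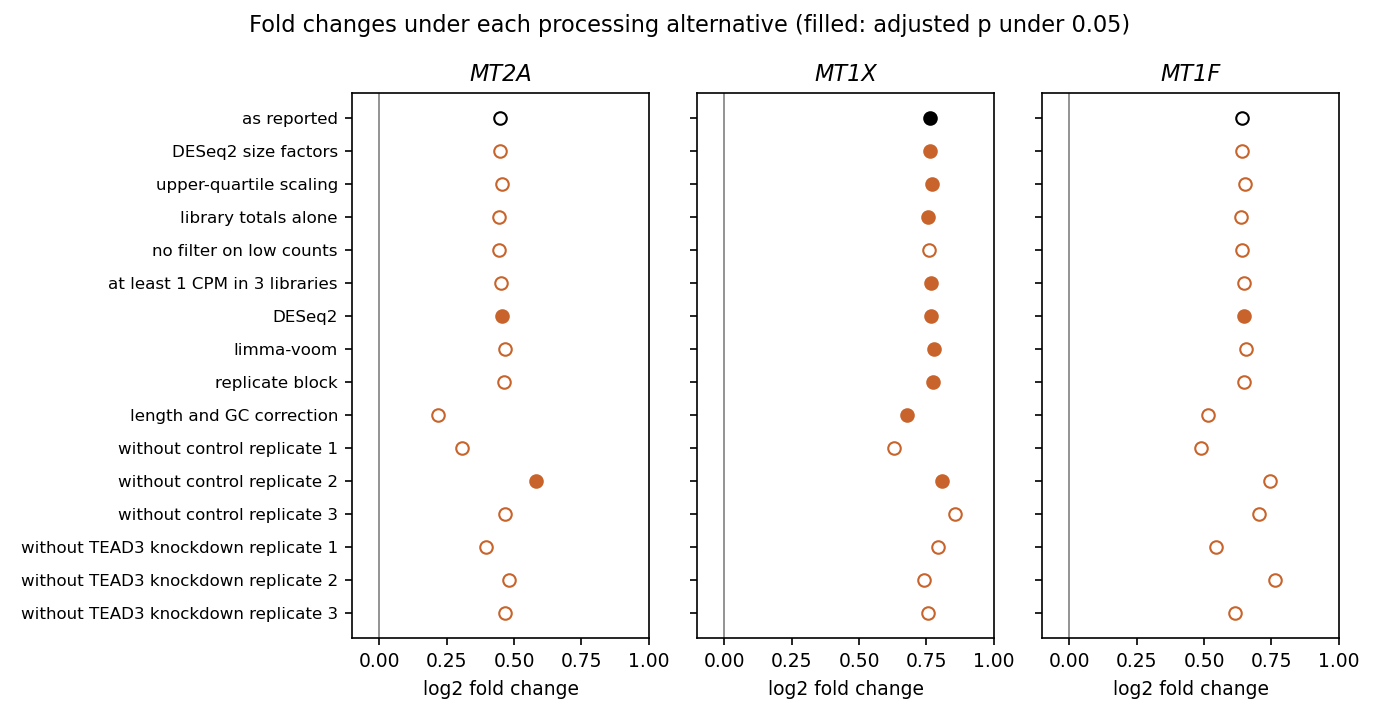
Log2 fold change (horizontal axis, knockdown over control) of MT2A, MT1X and MT1F as reported and under each of 15 processing alternatives (rows). Filled points have an adjusted p under 0.05. All points lie above 0, from 0.22 to 0.58 for MT2A, 0.63 to 0.86 for MT1X and 0.49 to 0.76 for MT1F, and MT1X is filled in 9 alternatives, MT2A in 2 and MT1F in 1.

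The pool of metallothionein transcript, summed over the 8 genes, was 521, 766 and 673 CPM in the controls and 965, 864 and 881 CPM after knockdown. The groups did not overlap, and the means of 653 ± 124 and 904 ± 54.3 CPM (SD, n = 3) stood in a ratio of 1.38. This sum follows MT2A, which made up 93.5% ± 0.519 of it in controls and 92.2% ± 0.486 in knockdown libraries. The MT1X share was 5.08%, 4.56% and 5.49% in the controls and 5.53%, 6.61% and 6.36% after knockdown. The lowest knockdown share lay just above the highest control share. No test was made of the sum or of the shares, because the genes in them were chosen with their values known.

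The zinc sensor and the exporter were not called. MTF1 (ENSG00000188786, chr1:37809567-37859620, minus strand) measured 34.0, 31.3 and 37.0 CPM in the controls and 29.4, 35.1 and 32.9 CPM after knockdown, and the groups overlapped. Its log2 fold change was -0.07 with a standard error of 0.117, and the 95% interval of the fold ran from 0.797 to 1.14 (edgeR adjusted p = 0.84). The MTF1 protein responds to zinc by binding it, which transcript counts do not measure. SLC30A1 (ENSG00000170385, chr1:211571568-211578742, minus strand), a target of MTF1, measured 42.4, 35.1 and 46.4 CPM in the controls and 49.9, 41.5 and 50.1 CPM after knockdown. Replicate 2 was the lowest of its group in both, and the groups overlapped. The log2 fold change of 0.19 had a standard error of 0.13 and a 95% interval of the fold from 0.936 to 1.39 (edgeR adjusted p = 0.525). Whether the fold changes of SLC30A1 and MT1X differ was not tested.

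Transcript length and GC content moved with the libraries, and the metallothionein genes have short transcripts. The longest annotated transcript had 903 bases for MT2A, 1573 for MT1F and 1727 for MT1X. The coding transcripts MT2A-201, MT1F-201 and MT1X-201 were shorter, at 786, 690 and 450 bases. When 9994 genes were divided into 10 equal classes by transcript length, the shortest class (207 to 1693 bases), which holds MT2A and MT1F, had a median log2 fold change of 0.16, with 5% of its genes below -0.20 and 5% above 0.53. Of its 1000 genes 11 (1.1%) were called, all higher, against 0.655% of all 17723 genes tested. Across the other classes 0.3% to 1.4% were called, the most in the class that follows by length (14 of 999, 12 of them higher). The next class (1694 to 2246 bases), which holds MT1X by its longest transcript, had a median of 0.07, and the longest class had one of -0.08. At 450 bases MT1X would instead fall in the shortest class. MT2A at 0.45 was thus inside the range of most genes of its length, while MT1F at 0.64 and MT1X at 0.76 were above the upper 5% mark of their classes (0.53 and 0.43). After a loess correction of each library for length and GC content, the median of the shortest class was -0.02. MT1X remained called at 0.68 (edgeR adjusted p = 0.015), MT1F was 0.51 (edgeR adjusted p = 0.0982), and MT2A was 0.22 as given above. The correction used the longest transcript of each gene, and its outcome for the shorter MT1X transcript was not tested.

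**Figure D3:**
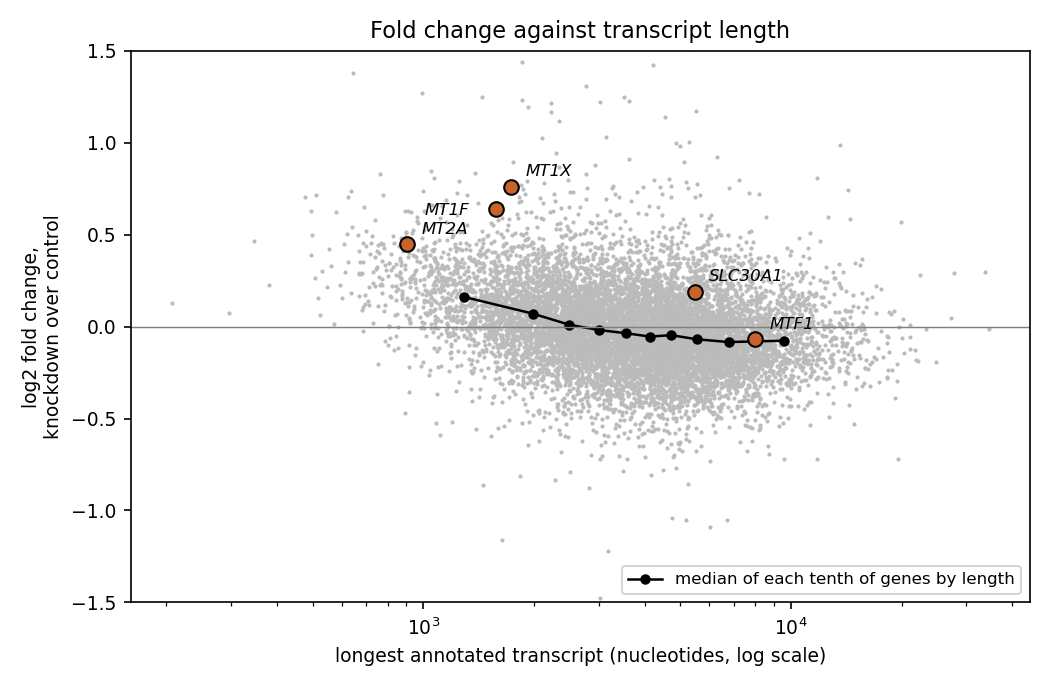
Log2 fold change (knockdown over control) against the length of the longest annotated transcript in nucleotides on a log axis, for 9994 genes (grey points). Large points are the named genes, and black points joined by a line are the medians of the 10 length classes, from 0.16 in the shortest to -0.08 in the longest. MT2A, MT1F and MT1X lie above the line among the shorter transcripts, and 15 genes fall beyond the axis limit of 1.5.

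GC content separated the control libraries from each other. Spearman's rho across these genes between GC content and a library's deviation from the mean of all 6 was -0.595 in control replicate 1, 0.7 in control replicate 2 and -0.25 in control replicate 3, and between -0.14 and 0.215 in the knockdown libraries. Genes are not independent replicates, so these are descriptions. The summed metallothionein level in controls followed the same order, lowest in replicate 1 and highest in replicate 2. RN7SL1, a cytoplasmic RNA without a poly(A) tail, measured 14.7, 34.5 and 17.6 CPM in the controls and 60.8, 14.4 and 79.8 CPM after knockdown, without a call (edgeR adjusted p = 0.264). Knockdown replicate 2 had the lowest RN7SL1 level of the 3 knockdown libraries, and with it the lowest MT2A, MT1F and summed metallothionein level and the highest MT1X level. The part of GC content and of RN7SL1 in the group difference was not tested beyond the correction above.

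The zinc transporters gave no call. Of 9 further SLC30 genes, which export zinc or load it into vesicles, 6 were tested, 0 were called in either direction, and the median log2 fold change was -0.02. SLC30A3, a vesicle zinc loader, had the smallest p of these at a low level of 0.594, 0.846 and 0.949 CPM in the controls and 1.75, 0.968 and 1.36 CPM after knockdown (log2 fold change 0.77, edgeR adjusted p = 0.339). SLC30A4 was at -0.25 (edgeR adjusted p = 0.515) and SLC30A7, a loader of the secretory pathway, at -0.11 (edgeR adjusted p = 0.797). Of 14 SLC39 genes, which bring zinc into the cytosol, 11 were tested, 0 were called, and the median was -0.03. Their smallest p values belonged to SLC39A8, an importer of zinc, manganese and cadmium, at 0.24 (edgeR adjusted p = 0.4), SLC39A10 at -0.23 (edgeR adjusted p = 0.443) and SLC39A9 at -0.11 (edgeR adjusted p = 0.664). At an unadjusted p under 0.05, edgeR gave 0 genes in either list, and DESeq2 and limma-voom called 0 in both.

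**Figure D4:**
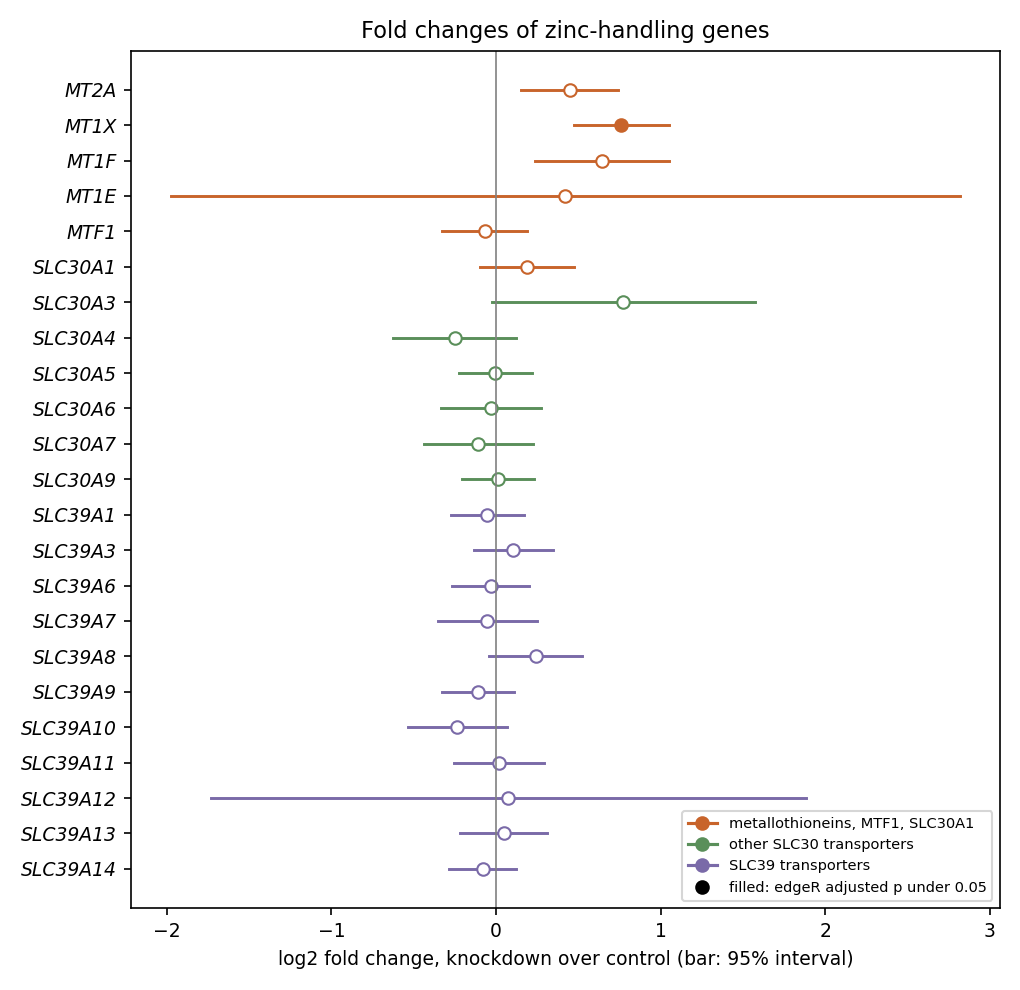
Log2 fold change (horizontal axis, knockdown over control) of the tested metallothioneins, MTF1, SLC30A1 and the tested zinc transporters of the SLC30 and SLC39 families, with 95% intervals as bars. The filled point has an edgeR adjusted p under 0.05. MT1X at 0.76 is the one filled point, and the intervals of MTF1, SLC30A1 and every tested transporter cross 0.

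Among 13 genes induced by metals or oxidants, HMOX1 was called higher and 0 were called lower, with a median log2 fold change of -0.13. Over all 17723 genes tested, 0.451% were called higher and 0.203% lower. HMOX1, heme oxygenase 1, which breaks down heme and responds to cadmium and oxidants, rose from 48.1, 53.8 and 57.5 CPM in the controls to 88.7, 79.9 and 86.8 CPM after knockdown. The groups did not overlap, and the log2 fold change was 0.68 with a standard error of 0.105 (edgeR adjusted p = 0.0177). The call was lost without control replicate 1 (0.0684), control replicate 3 (0.0636), knockdown replicate 1 (0.117) or knockdown replicate 3 (0.142), and without a filter on low counts (0.0639). OSGIN1, an oxidative stress gene, was at 1.08 without a call (edgeR adjusted p = 0.1, though DESeq2 called it), while the heat shock genes HSPA1A and HSPA1B, which cadmium also induces, were at -0.32 and -0.28 (edgeR adjusted p = 0.165 and 0.196). After the length and GC correction, OSGIN1 was called higher (1.04, edgeR adjusted p = 0.0338) and HSPA1A and HSPA1B lower (-0.36 and -0.31, edgeR adjusted p = 0.0426 and 0.0268). Without control replicate 2, 2 genes of this list were called higher (HMOX1 and OSGIN1) and 2 lower (GCLM and HSPH1). In the whole table that setting called 259 genes higher and 330 lower of 18490 tested. The length and GC correction called 277 higher and 291 lower of 17723, and DESeq2 called 486 higher and 352 lower of 14044.

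Copper shares the metallothionein binding sites with zinc. Of 11 copper-handling genes, SCO2, a copper chaperone of cytochrome c oxidase, was called higher and 0 were called lower. The median log2 fold change was 0.15. The shares called over all 17723 genes tested were 0.451% higher and 0.203% lower. SCO2 rose from 11.6, 13.1 and 9.87 CPM in the controls to 22.6, 19.7 and 19.9 CPM after knockdown (log2 fold change 0.84, standard error 0.144, edgeR adjusted p = 0.029). Its value is uncertain, because its exons overlap TYMP and another entry annotated as SCO2 on the same strand. The SCO2 call was also lost on leaving out any library other than control replicate 2 (edgeR adjusted p from 0.061 to 0.159). Without a filter on low counts it was lost as well (0.0927).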

How the data were processed

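Polyadenylated RNA of 6 samples was sequenced as strand-marked paired reads, per the labels' protocols. The deposited table holds whole numbers per gene, which were taken here as raw counts. GRCh38 is the build, and edgeR, DESeq2, StringTie 1.3.4d, HISAT2 2.0.4 and cutadapt 1.9 are the tools, per the submitters' processing notes. Which of them wrote the counts, with which annotation and strand setting, is not given in the sources used here. Of 60612 identifiers, 60401 matched a symbol in a table of gene names and 58394 a gene of GENCODE release 29, the source of coordinates and lengths.

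From these counts, edgeR 4.0.16 with its quasi-likelihood F test (R 4.3.3; TMM scaling, filterByExpr with a minimum of 10 counts, both groups, no covariate, two-sided, Benjamini-Hochberg over the 17723 genes tested) gave fold changes and adjusted p. A gene was called under 0.05. Standard errors are the log2 fold change over the root of F. At this depth 3 counts are 0.0457 to 0.0529 CPM. Libraries of a group differed by more than counting noise, with a chi-square of 22.6 to 80.1 per degree of freedom.

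The members and the gene lists were chosen with earlier results of these data known. Named are all members, TEAD3, every called gene of each list or, with none called, up to 3 with the smallest p, and the 5 genes most like the summed metallothioneins. Others (MT1H, MT1P1, MT2P1, OSGIN1, HSPA1A, HSPA1B, GCLM, HSPH1, RN7SL1, HERPUD1, NES, CD44, RBFOX3) were named with their values seen. One gene that this rule names is not reported here. Alternatives were other scalings and filters, DESeq2 1.42.0, limma-voom (limma 3.58.1), the replicate number as a block, a loess correction for length and GC content (span 0.3, 10354 genes), a threshold of 0.01 and leaving out each library. The procedure was tested on simulated data.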

Additional observations from a re-analysis of the deposited data

How the results depend on the processing

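Against 1 gene called higher of the 10, no filter on low counts gave 0, a threshold of 0.01 gave 0, DESeq2 gave 3 (MT1X, MT2A and MT1F), and leaving out 1 library gave 0 to 2. Against 116 called genes in the whole table, the counts were 31 without a filter, 838 by DESeq2, 63 with the replicate number as a block, 568 after the length and GC correction, 27 at a threshold of 0.01 and 20 to 589 on leaving out 1 library, with the 589 without control replicate 2. The split of higher and lower calls was 80 and 36 as reported, 486 and 352 by DESeq2, and 277 and 291 after the length and GC correction. No member was called lower under any alternative run. MT1E, called under none, changed sign with limma-voom (-0.77), the replicate block (-0.25) and on leaving out knockdown replicate 3 (-0.65 to 1.00 over the libraries left out). MTF1 was 0.0362 after the length and GC correction and -0.13 to 5.18e-05 on leaving out 1 library. The cause was not tested. Same-numbered deviations from the group means correlated at -0.101, -0.208 and -0.146 over 10365 genes, and no library correlated best with its own number. These deviations also carry the GC trend of each library, so they cannot show whether the libraries were paired. With the replicate block MT1X stayed called (0.78, edgeR adjusted p = 0.0467), and SCO2 was not (0.0721). With 3 libraries a group, the depth limits MT1E and MT1M, which had at most 31 and 4 counts in a library.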

Other observations

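Iron-handling genes gave no call by edgeR, with 6 of 7 tested and a median log2 fold change of 0.04. At an unadjusted edgeR p under 0.05, 2 of them were higher and 1 lower, against 1444 higher and 1317 lower of all 17723 genes tested. FTL, the ferritin light chain that stores iron, measured 5240.3, 5669.6 and 5854 CPM in the controls and 8369.7, 7008 and 7340.4 CPM after knockdown. The groups did not overlap (log2 fold change 0.44, edgeR adjusted p = 0.0792). TFRC, the transferrin receptor that takes iron up, measured 175, 133 and 182 CPM in the controls and 223, 223 and 254 CPM after knockdown (0.52, edgeR adjusted p = 0.0995). DESeq2, which called 838 of 14044 genes in all, called both, and limma-voom neither. After the length and GC correction edgeR called TFRC (0.57, adjusted p = 0.00916) but not FTL. The longest FTL transcript has 878 bases, and its 0.44 lay below the upper 5% mark of the shortest length class (0.53). SLC11A2, an importer of iron and other metals, was at -0.29 (edgeR adjusted p = 0.254).

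Glucocorticoid-responsive genes, another class that shares an inducer with metallothioneins, also gave no call, with 9 of 10 tested and a median of 0.10. At an unadjusted p under 0.05, 2 were higher and 1 lower by edgeR, against 1444 higher and 1317 lower of all 17723 genes tested. DESeq2 called 1, DUSP1, against 838 of 14044 genes over the whole table. DUSP1, a phosphatase of MAP kinases, was at 0.60 (edgeR adjusted p = 0.121), and FKBP5, a chaperone of the glucocorticoid receptor, at 0.28 (edgeR adjusted p = 0.262). ERRFI1, an inhibitor of EGFR, was at -0.25 (edgeR adjusted p = 0.27).

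The genes that flank the metallothionein cluster on chromosome 16 did not show its direction. Of 8 tested, 0 were called by edgeR or DESeq2, and the median was -0.17. At an unadjusted edgeR p under 0.05, 3 were lower and 0 higher, against 1317 lower and 1444 higher of all 17723 genes tested. GNAO1 was at -0.45 (edgeR adjusted p = 0.27) and BBS2 at -0.25 (edgeR adjusted p = 0.283), while HERPUD1 was the one of the 8 above 0, at 0.19.

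The genes whose levels over the 6 libraries were most like the summed metallothionein level were KRTCAP2 (Pearson r = 0.996), FJX1 (0.994), RTN2 (0.993), TPGS1 (0.990) and RPL18AP3 (0.989), among 10360 candidates, of which 82 had r above 0.95. The points share their libraries, depth and base composition, and none of the 5 was called.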
